A study of Arabidopsis thaliana with 30 samples.

Results

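Aquaporins are membrane channels of the major intrinsic protein family that let water, and for some members carbon dioxide, ammonia, urea or hydrogen peroxide, pass along a gradient. The PIP subfamily sits in the plasma membrane, where PIP1 proteins usually need a PIP2 partner to reach the cell surface, and the TIP subfamily sits in the tonoplast, the membrane of the vacuole. In a leaf that leaves cell division behind and enlarges its cells, water crosses both membranes to fill the growing vacuole, while aquaporins of the veins take part in moving water out of the xylem.

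The genes described here are 10 aquaporins of Arabidopsis thaliana, 6 of the plasma membrane (PIP1;1, PIP1;2, PIP2;1, PIP2;2, PIP2;6 and PIP2;7) and 4 of the tonoplast (TIP1;1, TIP1;2, TIP2;1 and TIP2;2). The text calls them by their RefSeq symbols, which are PIP1A, PIP1B, PIP2A, PIP2B, PIP2E and PIP3 for the PIP genes and GAMMA-TIP, TIP2, DELTA-TIP and TIP2;2 for the TIP genes in the order given, except that TIP1;2 keeps its systematic name because TIP2 is also the name of a subgroup. They were taken by locus, and each of the 10 loci was represented by 1 probe set among the 30237 on the array, so that 10 of 10 were measured and no filter on low values removed any. Another 25 aquaporin loci, which make 35 in all, serve as the comparison. The 10 genes were chosen with earlier results of these data known, so their contrast with the 25 or with all probe sets is a description. The study measured RNA of leaf 3, the third leaf, of seedlings of the Col-0 ecotype grown on MS medium, with 3 arrays of separate biological repeats in each of 10 groups. In the norflurazon experiment, seedlings were given the herbicide norflurazon at day 8 and sampled at day 9 (24 h) or day 10 (48 h). Control seedlings on MS medium without it were sampled on the same days. They are recorded with the same treatment day and hours, whereas the time course groups have no recorded treatment day. In the time course, untreated seedlings were sampled on each day between day 8 and day 13, counted from stratification, the cold step that synchronises germination. Norflurazon inhibits phytoene desaturase, an enzyme of carotenoid synthesis, and plastids without carotenoids are damaged in the light.

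Values are log2 expression levels, and a difference of 1 is a doubling. A gene was called changed at a limma adjusted p under 0.05, with Benjamini-Hochberg adjustment over the 30237 probe sets, and changes are given ± the standard error of that fit. Array medians averaged 2.82 to 2.86 in groups of the norflurazon experiment, against 3.56 to 3.62 in groups of the time course. The experiments are listed as separate sample sets in the study design and were fitted apart, except in 1 comparison of changes between them. No level is set against one of the other experiment. The median change over all probe sets was within 0.03 of 0 in every comparison below. The leaf samples hold many cell types, and a fall in a transcript through fewer cells of a type and a fall through less RNA per cell cannot be told apart. The meristem markers STM and WUS were below the array median in all groups but day 8, where 1 of the 2 lay above it. All 5 mesophyll probe sets lay above the array median in every group.

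Between day 8 and day 13, 9 of the 10 aquaporins rose and 0 fell, and only PIP3 was not called. Of all probe sets, 33.7% were called in this comparison, and 13.9% were called as higher. The median change of the 10 genes was 1.74 on the log2 scale, against 0.02 over all probe sets. By their mean over the time course the 10 genes were brighter than 74.1% (TIP2;2) to 99.9% (TIP1;2) of probe sets. The shares over all probe sets thus include many dimmer ones. Over all 6 ages the same 9 genes varied by limma's F test, where 32.4% of probe sets were called. In 10 of 10 genes the 3 day-13 arrays did not overlap the 3 day-8 arrays. The share of all probe sets that separate in this way was not counted, while 12389 had an unadjusted limma p under 0.05.

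**Figure D1:**
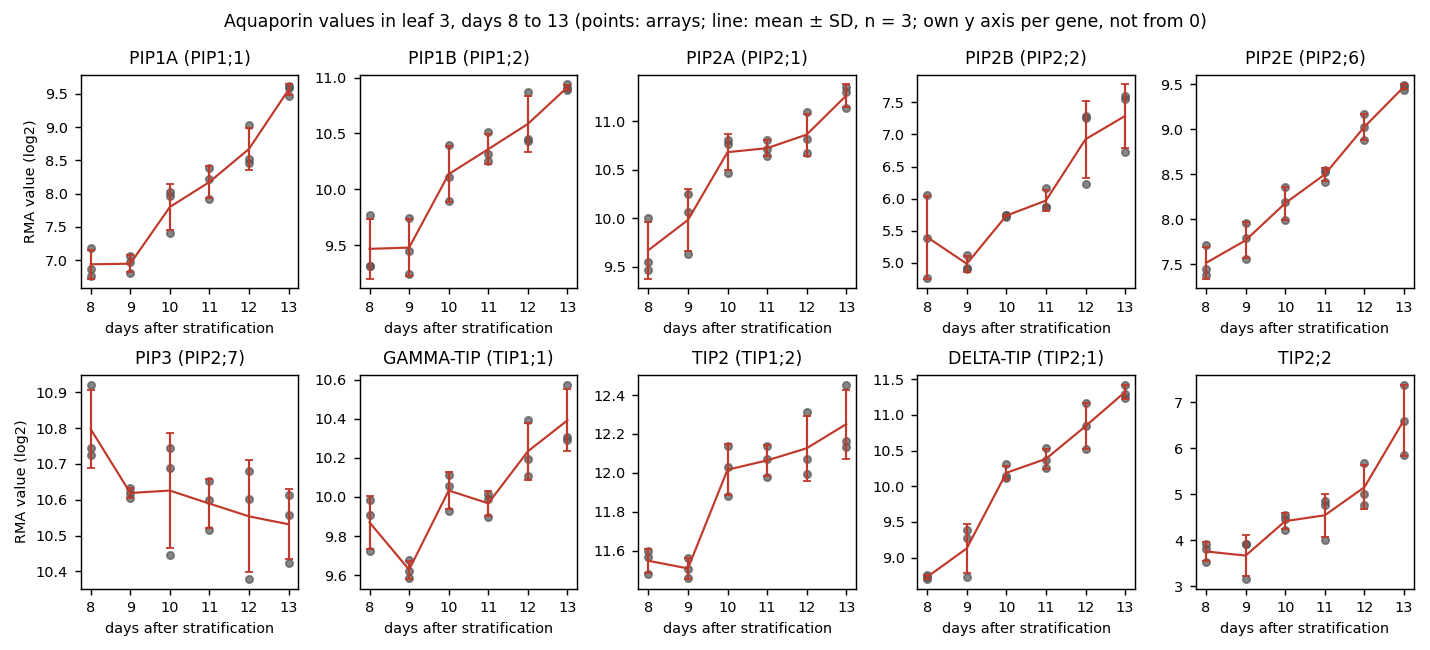
Log2 expression of each of the 10 aquaporins (1 panel per gene) against age in days after stratification in untreated leaves where points are single arrays, 3 per day, and lines join the daily means with their SD. The day-13 points lie above the day-8 points in 9 panels and below them in that of PIP3, a direction that turned when quantile normalization was run again, and the panels have separate vertical scales.

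Among the plasma membrane genes, PIP1A had the largest rise. PIP1A (PIP1;1, AT3G61430), a PIP1-type channel, stood at 9.47, 9.62 and 9.59 in the 3 day-13 arrays, against 7.18, 6.87 and 6.77 in the day-8 arrays. All day-13 arrays lay above all day-8 arrays, by a 6.16-fold change of the means (2.62 ± 0.18, limma adjusted p = 1.06e-08). Its daily means climbed through 6.94, 6.95, 7.80, 8.17, 8.67 and 9.56 on days 8 to 13, and of the neighbouring days only days 8 and 9 and days 10 and 11 had overlapping arrays.

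PIP1B (PIP1;2, AT2G45960), a major leaf PIP1 that contributes to water transport of the rosette, stood at 10.89, 10.91 and 10.94 at day 13 and at 9.77, 9.32 and 9.31 at day 8. The day-13 arrays were within 0.05 of each other, while 1 day-8 array lay above the rest. The change was 1.45 ± 0.17 (limma adjusted p = 2.52e-06), or 2.73-fold.

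PIP2A (PIP2;1, AT3G53420), a water channel found in veins and in guard cells, where the kinase OST1 can phosphorylate it, stood at 11.35, 11.13 and 11.30 at day 13 against 10.00, 9.54 and 9.46 at day 8. The groups did not overlap, and the mean was 3.02-fold higher at day 13 (1.59 ± 0.17, limma adjusted p = 1.04e-06). PIP2E (PIP2;6, AT2G39010), a PIP2 of the leaf veins and rosette, stood at 9.44, 9.49 and 9.48 at day 13 and at 7.71, 7.45 and 7.38 at day 8. It climbed in the most even way, since only days 8 and 9 overlapped and each later day lay above the one before it (1.95 ± 0.13 over the 5 days, limma adjusted p = 4.94e-09).

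PIP2B (PIP2;2, AT2G37170), a close relative of PIP2A known mostly from roots, was more scattered, at 7.60, 7.55 and 6.72 at day 13 against 6.05, 4.76 and 5.38 at day 8. The rise of 1.89 ± 0.30 (limma adjusted p = 8.43e-05) was larger than that spread, and the groups did not overlap. Its lowest mean, 4.98 ± 0.12 (SD, n = 3), was at day 9.

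PIP3 (PIP2;7, AT4G35100), a PIP2-type water channel, had a lower mean at day 13. Its arrays stood at 10.56, 10.42 and 10.61 at day 13 and at 10.92, 10.74 and 10.73 at day 8. All day-13 arrays lay below all day-8 arrays, but the difference of -0.27 ± 0.11 (95% interval -0.49 to -0.04) had a limma adjusted p of 0.0662. The direction was not stable, since quantile normalization run again gave 0.07 (adjusted p = 0.659). In 2 of the 11 alternatives it was called as lower, which were leaving out probe sets that were dim, with means below the median of all probe sets in every group (adjusted p = 0.0447), and an intensity trend with a robust prior (adjusted p = 0.0414). When its daily means were put in order, every pair of neighbours overlapped.

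Among the tonoplast genes, the changes of DELTA-TIP and TIP2;2 were larger than those of GAMMA-TIP and TIP1;2, a difference between genes that was not tested. DELTA-TIP (TIP2;1, AT3G16240), a tonoplast channel for water and ammonia, stood at 11.24, 11.30 and 11.42 at day 13, against 8.70, 8.75 and 8.73 at day 8. The groups were far apart and tight, and the mean was 6.02-fold higher at day 13 (2.59 ± 0.16, limma adjusted p = 3.93e-09). TIP2;2 (AT4G17340), its relative best known from roots, stood at 6.59, 7.38 and 5.85 at day 13 and at 3.81, 3.92 and 3.53 at day 8. The day-13 arrays spread over more than 1 log2 unit, and the day-8 mean of 3.76 was close to the array median of that group, yet the groups did not overlap (2.85 ± 0.33, limma adjusted p = 2.97e-06).

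GAMMA-TIP (TIP1;1, AT2G36830), a tonoplast channel of enlarging cells, stood at 10.29, 10.31 and 10.58 at day 13 against 9.98, 9.91 and 9.72 at day 8, a change of 0.52 ± 0.11 (limma adjusted p = 0.000933). TIP1;2 (AT3G26520), a paralogue of GAMMA-TIP, stood at 12.16, 12.13 and 12.45 at day 13 and at 11.60, 11.57 and 11.48 at day 8, a change of 0.70 ± 0.11 (limma adjusted p = 7.59e-05). In both genes the day-13 arrays lay above the day-8 arrays by less than a doubling of the mean. All 9 rises kept their call in each of the 11 alternatives computed for this comparison, the 6 that leave out 1 array among them.

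**Figure D2:**
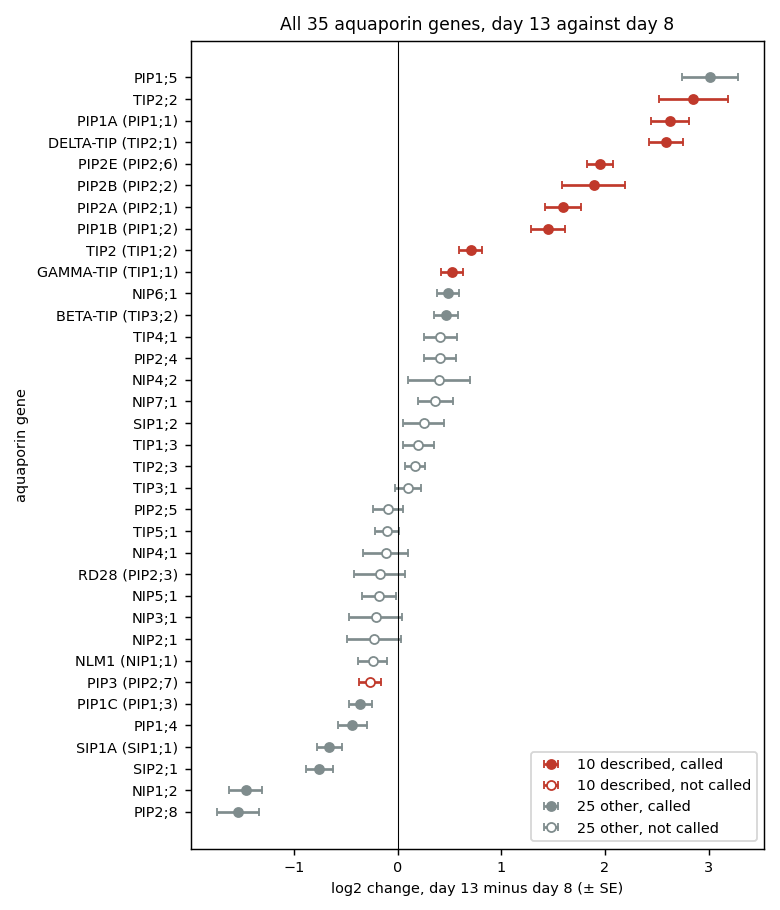
Log2 change, day 13 minus day 8, with its standard error, for the 10 aquaporins (red) and the 25 others (grey), filled where called. The 10 lie at -0.27 to 2.85, and the others lie at -1.54 to 3.02, with PIP1;5 the highest of them.

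Of the 25 other aquaporins, 3 rose and 6 fell between day 8 and day 13, a share near the 33.7% of all probe sets called, with a median change of -0.10. They are what remains of the family after a choice made with earlier results known, so their difference from the described genes was not tested. PIP1;5, another PIP1, averaged 8.00 ± 0.16 at day 13 and 4.98 ± 0.40 at day 8 (SD, n = 3 each), a rise of 3.02 ± 0.27 (limma adjusted p = 1.66e-07). NIP6;1, a boric acid channel, rose by 0.48 ± 0.11, a size that may be compressed because its day-8 level was at or below the array median. PIP2;8 fell by 1.54 ± 0.20 (adjusted p = 1.08e-05) and NIP1;2 by 1.47 ± 0.16 (adjusted p = 1.59e-06). SIP2;1 and SIP1A (SIP1;1), members of a small subfamily of the endoplasmic reticulum, fell by 0.76 ± 0.13 and 0.66 ± 0.12.

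PIP2B and TIP2;2 each have a close copy whose probes could cross-hybridise, which the deposited values do not settle. RD28 (PIP2;3), the gene next to PIP2B, averaged 4.89 at day 13 and 5.06 at day 8, a difference of -0.18 ± 0.24 (limma adjusted p = 0.640). TIP2;3 was 0.17 ± 0.09 higher at day 13 (adjusted p = 0.202), with its day-8 level at or below the array median. Across the 18 time course arrays PIP2B correlated with RD28 at r = 0.38 and TIP2;2 with TIP2;3 at r = 0.38, a description over arrays that share age.

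Single intervals of 1 day were compared next. Between day 8 and day 9, 0 of the 10 genes were called, against 1.28% of probe sets. Between day 9 and day 10, 6 of the 10 rose, which were PIP1A, PIP1B, PIP2A, GAMMA-TIP, TIP1;2 and DELTA-TIP, against 7.38% of probe sets called and 2.37% called as higher. In 9 of the 10 genes the day-10 arrays did not overlap the day-9 arrays, PIP3 being the exception. Separation was not counted over all probe sets, of which 6210 had an unadjusted limma p under 0.05. Among the 9 genes that rose over the whole course, this interval held the largest step for 5.

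**Figure D3:**
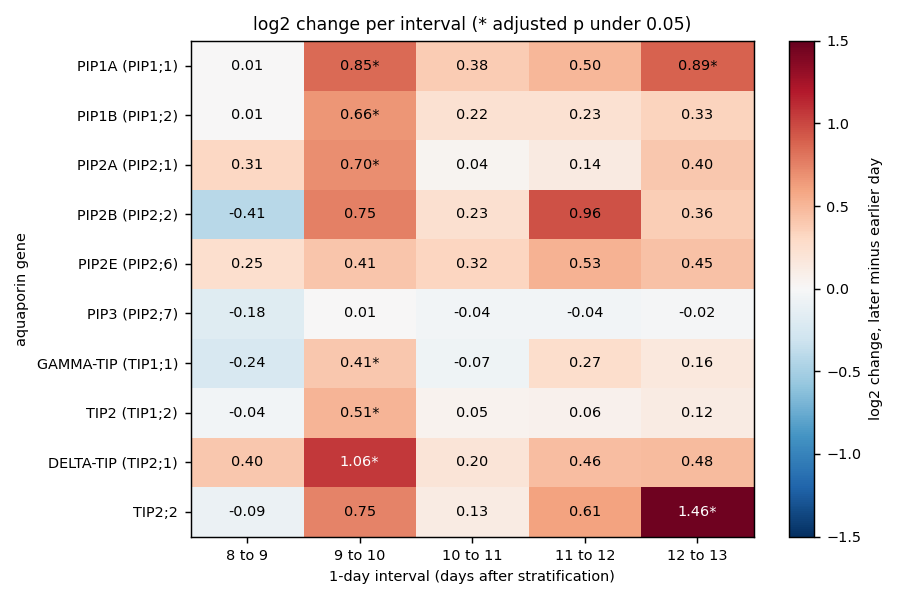
Log2 change of each aquaporin (rows) in each interval of 1 day (columns, later minus earlier day), as a colour and a printed value, with a star at a limma adjusted p under 0.05. The stars lie in the interval of days 9 to 10 for 6 genes and in that of days 12 to 13 for PIP1A and TIP2;2.

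DELTA-TIP made the largest called step at that time. It stood at 10.14, 10.12 and 10.31 at day 10 against 9.27, 9.38 and 8.74 at day 9, a rise of 1.06 ± 0.16 (limma adjusted p = 0.00233) that held in all 11 alternatives. PIP1A rose by 0.85 ± 0.18 (adjusted p = 0.0106), PIP2A by 0.70 ± 0.17 (adjusted p = 0.0200) and PIP1B by 0.66 ± 0.17 (adjusted p = 0.0246). GAMMA-TIP rose by 0.41 ± 0.11 (adjusted p = 0.0309), after an uncalled difference of -0.24 between day 9 and day 8, so that the step partly regained that difference. In TIP1;2 the step was 72.2% of the net change between days 8 and 13 (0.51 ± 0.11, adjusted p = 0.0122). In DELTA-TIP the same step was 40.8% of the whole.

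Apart from DELTA-TIP, these calls depended on single arrays. The count of 6 became 1 without replicate 2 of day 10, 2 without its replicate 3, 2 without replicate 3 of day 9 and 4 without replicate 2 of day 9. With the arrays of days 9 and 10 alone in the fit it was 3, which were DELTA-TIP, PIP1A and PIP2B. PIP2B (limma adjusted p = 0.0334) was not among the 6.

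Between day 10 and day 11, 0 of the 10 genes and 0% of all probe sets were called by limma, although 2156 probe sets had an unadjusted p under 0.05. From day 11 to day 12, again 0 of 10 were called, against 0.695% of probe sets. PIP2B and PIP2E nonetheless had their largest step there, 0.96 ± 0.30 (limma adjusted p = 0.178) and 0.53 ± 0.13 (adjusted p = 0.0671). The PIP2B step was 1.30 and was called (adjusted p = 0.0498) without replicate 2 of day 12, whose value of 6.23 was 1 log2 unit below the other 2 arrays of its day.

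Between day 12 and day 13, 2 of the 10 genes rose, against 1.54% of probe sets called and 0.681% called as higher. PIP1A stood at 9.47, 9.62 and 9.59 at day 13 and at 8.52, 8.46 and 9.03 at day 12 (0.89 ± 0.18, limma adjusted p = 0.0212). TIP2;2 stood at 6.59, 7.38 and 5.85 at day 13 and between 4.76 and 5.69 at day 12 (1.46 ± 0.33, adjusted p = 0.0376), a step that was 51.1% of its whole rise. The arrays did not overlap in either gene. Neither was called without replicate 2 of day 13, without replicate 1 or 2 of day 12, or with the arrays of these 2 days alone in the fit. Without replicate 1 of day 13 TIP2;2 was lost (adjusted p = 0.0881), and without replicate 3 of day 13 PIP1A was lost (adjusted p = 0.0542).

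The 9 genes that rose followed each other across the 18 arrays, with Pearson r of 0.73 to 0.98 over their 36 pairs, whereas the 9 pairs with PIP3 had r of -0.55 to -0.24. These are descriptions over arrays that share age. The split into the 9 and PIP3 came from the day 13 against day 8 calls on these same 18 arrays. The gap between the 2 ranges in the time course therefore follows in part from that split. Across the 12 arrays of the norflurazon experiment the ranges were 0.17 to 0.98 and 0.14 to 0.90. The sign of r was thus negative in all 9 pairs with PIP3 in the time course and positive in all 9 in the norflurazon experiment. The fall of PIP3 over the time course was not called, and its direction turned when quantile normalization was run again.

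By Pearson r over the 18 time course arrays, the gene most like PIP1A was SUC2, the sucrose transporter of phloem companion cells (r = 0.98, and 0.63 over the 12 arrays of the norflurazon experiment). DELTA-TIP was most like BCA4, a carbonic anhydrase (r = 0.99 and 0.61), and PIP2E was most like PKS2, a phytochrome signalling protein (r = 0.99 and 0.31). PIP2A was most like ELI3-1 (r = 0.99 and 0.67), followed by PSBO2, a subunit of photosystem II, and FIB4, a plastid fibrillin, whose r over the 12 arrays was 0.03 for PSBO2 and 0.46 for FIB4. TIP1;2 was most like PSAL and PSAO, subunits of photosystem I, with r of 0.95 and 0.60 for PSAL and of 0.94 and 0.48 for PSAO. For the remaining genes the first was TRFL1 for PIP1B, WNK1 for PIP2B, CDF3 for GAMMA-TIP, BAG3 for TIP2;2 and MBD10 for PIP3, the last with r of 0.84.

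Markers of several leaf tissues moved with age too. All 6 vascular markers were higher at day 13, SUC2 by 3.36 ± 0.18 (limma adjusted p = 9.09e-10), and the log2 of their summed level was 8.42 to 8.61 in day-13 arrays and 5.973 to 5.9996 in day-8 arrays. All 4 guard cell markers were higher (summed level 9.66 to 9.98 at day 13 and 5.84 to 6.83 at day 8). Of 5 mesophyll probe sets, 3 were higher, CA1 by 7.04 ± 0.48, CA2 by 6.47 ± 0.27 and LHCB1.4 by 3.73 ± 0.27. The 2 not called were both of RBCS1A (-0.02 ± 0.32 and 0.12 ± 0.31), at levels of 13.54 to 13.72. Both epidermal markers were lower (9.69 to 9.97 at day 13 and 11.16 to 11.33 at day 8). Of 3 root markers 1 was higher, and they had a summed level of 5.09 to 5.32 at day 13 and 4.79 to 5.13 at day 8. The part of these markers in the rise of the aquaporins was not tested.

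Proton pumps, whose gradients drive acid growth at the cell wall and solute uptake into the vacuole, are the partners of water channels in cell enlargement. Of 20 pump genes, 6 rose and 1 fell between day 8 and day 13, a share near the 33.7% of all probe sets called, with a median change of 0.18. AHA2, a plasma membrane H+-ATPase, averaged 6.501 ± 0.17 at day 13 and 5.34 ± 0.47 at day 8 (SD, n = 3 each), a rise of 1.16 ± 0.19 (limma adjusted p = 0.000119). AHA3, a phloem isoform, rose by 2.54 ± 0.16, a size that may be compressed because its day-8 level was at or below the array median. VHA-B1, a vacuolar ATPase subunit, rose by 1.05 ± 0.16, and VHA-c4 fell by 0.60 ± 0.12.

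Of 11 genes that act in aquaporin trafficking and modification, 1 rose and 5 fell over the same days, beside 33.7% of all probe sets called, with a median change of -0.15. VAMP721, a vesicle fusion protein of the secretory pathway, fell by 1.17 ± 0.10 (limma adjusted p = 7.15e-08), and OST1, the guard cell kinase, fell by 0.82 ± 0.14 (adjusted p = 0.000157). RMA1 and RMA2, membrane-anchored ubiquitin ligases, went in opposite directions, with RMA1 at -1.39 ± 0.19 and RMA2 at 1.23 ± 0.19. Both were at or below the array median at the age where they were lower, so these sizes may be compressed.

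Control leaves of the norflurazon experiment covered the interval of days 9 to 10 a second time. In them 5 of the 10 aquaporins rose, against 11.5% of probe sets called and 5.18% called as higher. They were PIP1B, PIP2E, PIP3, GAMMA-TIP and TIP1;2, of which PIP1B, GAMMA-TIP and TIP1;2 also rose in the time course. GAMMA-TIP stood at 10.37, 10.10 and 10.12 in control leaves at day 10 and at 9.65, 9.18 and 9.62 at day 9 (0.71 ± 0.14, limma adjusted p = 0.00490). PIP1B stood at 10.27, 9.94 and 9.97 at day 10 against 9.45, 9.34 and 9.57 at day 9 (0.60 ± 0.12, adjusted p = 0.00534). In both genes the day-10 arrays lay above all day-9 arrays.

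The calls of PIP2E (0.34 ± 0.10, adjusted p = 0.0410), PIP3 (0.33 ± 0.08, adjusted p = 0.0239) and TIP1;2 (0.34 ± 0.10, adjusted p = 0.0380) were weaker. The count of 5 became 2 without replicate 1 of the day-10 controls or replicate 2 of the day-9 controls, and 3 without replicate 2 of the day-10 controls or replicate 3 of the day-9 controls. With these arrays alone in the fit it was 2.

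The changes of PIP2A and TIP2;2 between days 9 and 10 had other point values in the control leaves. PIP2A stood at 11.07, 10.86 and 10.85 at day 10 and at 10.81, 10.95 and 11.02 at day 9, a difference of -0.00 ± 0.11 (adjusted p = 0.994). Its change in control leaves was 0.70 ± 0.21 below that in the time course (limma adjusted p = 0.0479), in a comparison added after the values had been seen in which 6.81% of probe sets were called and 2.40% were called as lower. TIP2;2 stood at 5.74, 4.90 and 5.19 at day 10 and at 5.94, 5.76 and 6.27 at day 9. The day-10 arrays thus lay below, where in the time course they lay above. Neither change of TIP2;2 was called by limma, at -0.72 in control leaves (adjusted p = 0.189) and 0.75 in the time course (adjusted p = 0.209). For TIP2;2 that difference between experiments was -1.46 ± 0.49 (adjusted p = 0.0734), and for PIP2B -0.85 ± 0.37 (adjusted p = 0.194). The call of PIP2A was lost without replicate 2 or 3 of any of the 4 groups involved (adjusted p = 0.0545 to 0.159). The experiments were separate sets of arrays with different array medians. Experiment and the day-8 treatment step, recorded for the control leaves but not for the time course, cannot be told apart. The labels used here give no batch of hybridisation.

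At 24 h of norflurazon, 6 of the 10 aquaporins fell and 0 rose. They were PIP1A, PIP2A, PIP2B, TIP1;2, DELTA-TIP and TIP2;2. Of all probe sets, 7.43% were called, and 3.83% were called as lower. The median change of the 10 genes was -0.53, against -0.01 over all probe sets, and in 7 of 10 genes the norflurazon arrays lay below all control arrays. Such separation was not counted over all probe sets, of which 6002 had an unadjusted limma p under 0.05.

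**Figure D4:**
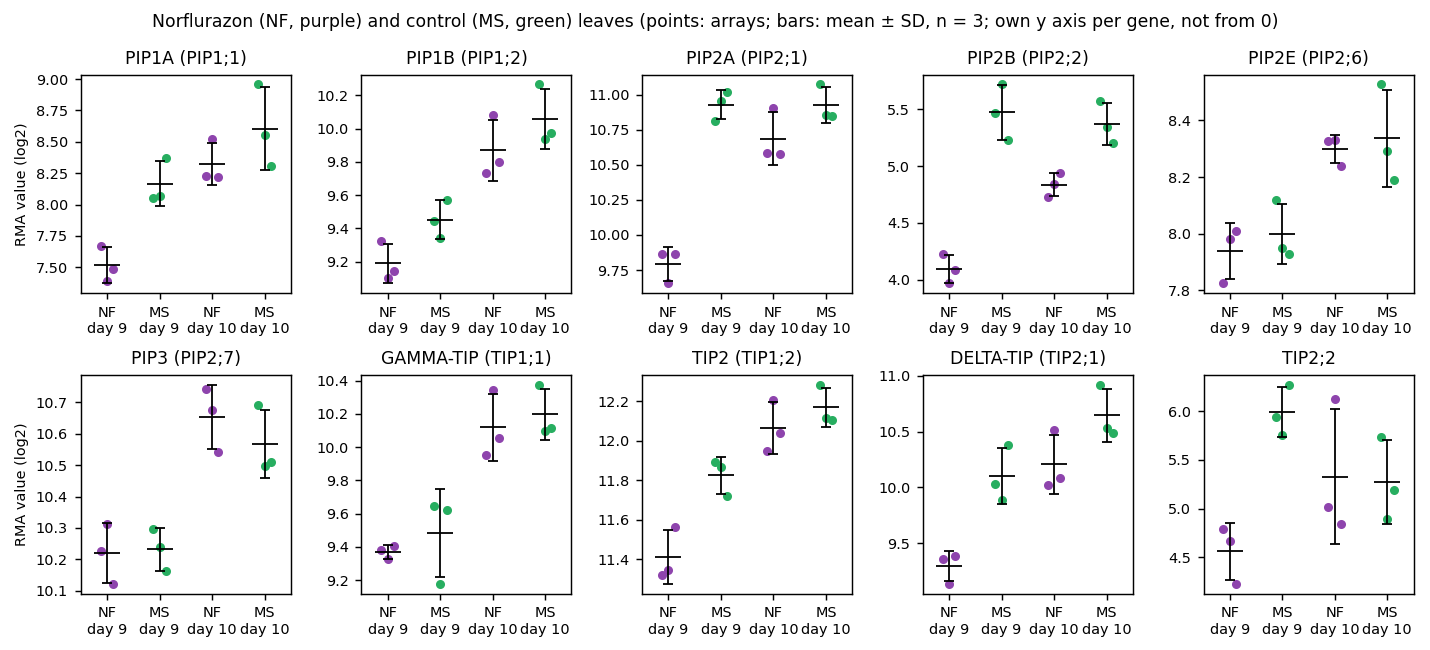
Log2 expression of the 10 aquaporins (1 panel per gene) in norflurazon and control leaves at day 9 and day 10 where points are single arrays, 3 per group, bars are means ± SD, and norflurazon stands left of control within each day. At day 9 the norflurazon points lie below all control points for 7 genes, and at day 10 for PIP2B only.

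The largest falls were in the PIP2 pair and in TIP2;2. PIP2A stood at 9.86, 9.65 and 9.87 in norflurazon leaves at day 9, against 10.81, 10.95 and 11.02 in control leaves. Every norflurazon array lay well below every control array, and the mean fell 2.19-fold (-1.13 ± 0.11, limma adjusted p = 0.000191). PIP2B stood at 4.22, 3.97 and 4.08 in norflurazon leaves and at 5.47, 5.72 and 5.23 in control leaves, a 2.60-fold fall (-1.38 ± 0.13, adjusted p = 0.000172). TIP2;2 stood at 4.79, 4.66 and 4.23 in norflurazon leaves and at 5.94, 5.76 and 6.27 in control leaves, a 2.69-fold fall (-1.43 ± 0.31, adjusted p = 0.0156).

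DELTA-TIP stood at 9.36, 9.14 and 9.39 in norflurazon leaves against 10.03, 9.89 and 10.38 in control leaves (-0.80 ± 0.16, limma adjusted p = 0.0116). PIP1A stood at 7.67, 7.39 and 7.49 in norflurazon leaves against 8.05, 8.07 and 8.37 in control leaves (-0.65 ± 0.16, adjusted p = 0.0268). TIP1;2 stood at 11.32, 11.35 and 11.57 in norflurazon leaves against 11.89, 11.87 and 11.72 in control leaves (-0.42 ± 0.10, adjusted p = 0.0218). In each of these genes the groups did not overlap. The changes of the other 4 were smaller and not called. PIP1B differed by -0.26 ± 0.12 (adjusted p = 0.235) with separate arrays, GAMMA-TIP by -0.11 ± 0.14 (95% interval -0.41 to 0.18), PIP2E by -0.06 ± 0.10 (-0.27 to 0.15) and PIP3 by -0.01 ± 0.08 (-0.20 to 0.17).

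The falls of PIP2A and PIP2B held in all 11 alternatives, and the other 4 each depended on single arrays. The count of 6 became 3 without norflurazon replicate 2, where DELTA-TIP (adjusted p = 0.0523), PIP1A (0.0974) and TIP1;2 (0.0799) were not called. TIP2;2 was lost without norflurazon replicate 3 (adjusted p = 0.0583) and without control replicate 3 (0.0645). PIP1A was lost without these too (0.0716 and 0.107), and TIP1;2 without norflurazon replicate 1 (0.0871) or control replicate 1 (0.0638) or 2 (0.0695).

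At 48 h, 0 of the 10 aquaporins were called, against 0.771% of probe sets, while 4218 probe sets had an unadjusted p under 0.05. PIP2B alone kept separate arrays, at 4.73, 4.85 and 4.94 in norflurazon leaves and 5.57, 5.34 and 5.20 in control leaves (-0.53 ± 0.13, 95% interval -0.82 to -0.25, limma adjusted p = 0.0864). PIP2A stood at 10.58, 10.90 and 10.57 in norflurazon leaves against 11.07, 10.86 and 10.85 in control leaves, a difference of -0.24 ± 0.11 (95% interval -0.48 to -0.00). For DELTA-TIP the difference was -0.44 ± 0.16 (-0.80 to -0.08, adjusted p = 0.245), and for PIP1A -0.28 ± 0.16 (-0.63 to 0.06, adjusted p = 0.468). TIP2;2 differed by 0.05 ± 0.31 (-0.62 to 0.73), with norflurazon arrays at 5.02, 6.12 and 4.84 on both sides of the control arrays. The intervals leave room for differences of the sizes given, so these genes are not shown to be at control levels.

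**Figure D5:**
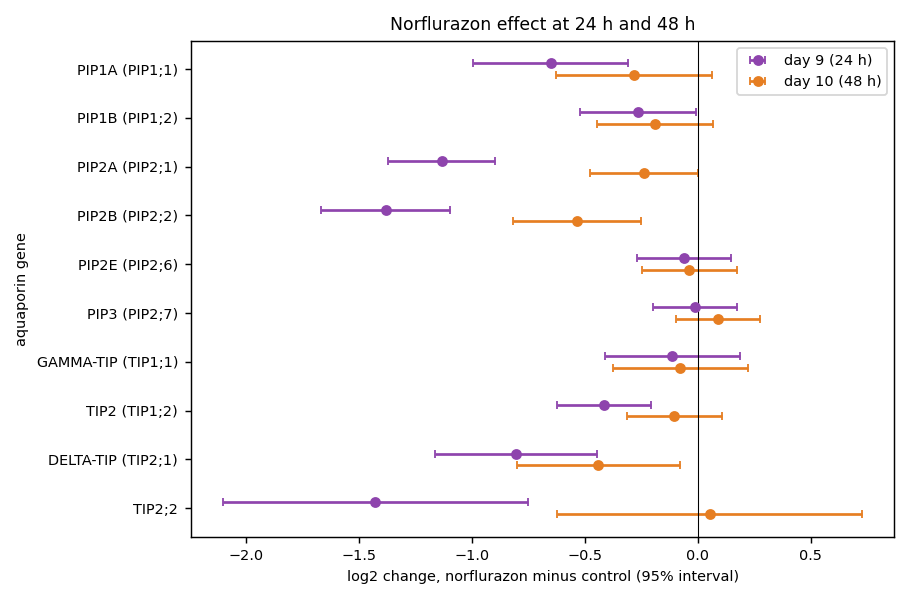
Log2 change, norflurazon minus control, of each aquaporin at day 9 (24 h, upper point) and day 10 (48 h, lower point), with 95% intervals from limma. At day 9 the points of PIP2A, PIP2B and TIP2;2 lie below -1, and at day 10 the lowest is PIP2B at -0.53.

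Whether the effect differed between the days was tested as an interaction, the day-10 effect minus the day-9 effect. It was called for 2 of the 10 genes, against 1.95% of probe sets called and 1.26% called as higher. In PIP2A the interaction was 0.90 ± 0.15 (limma adjusted p = 0.0129), a call that all 16 alternatives kept. In PIP2B it was 0.85 ± 0.18 (adjusted p = 0.0381), but only 5 of the 16 kept it. It was lost without any 1 of 10 of the 12 arrays, the exceptions being replicate 1 of the day-10 controls and replicate 3 of the day-9 controls (adjusted p = 0.0535 to 0.0946). TIP2;2 had the largest point value, 1.48 ± 0.44 (95% interval 0.53 to 2.44), with an adjusted p of 0.121. For the others the interaction was between 0.02 and 0.37, and none was called.

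PIP2A averaged 9.79 ± 0.12 in norflurazon leaves and 10.93 ± 0.10 in control leaves at day 9, and 10.69 ± 0.19 in norflurazon leaves and 10.93 ± 0.13 in control leaves at day 10 (SD, n = 3 each). PIP2B averaged 4.09 in norflurazon and 5.47 in control leaves at day 9, and 4.84 and 5.37 at day 10. TIP2;2 averaged 4.56 in norflurazon and 5.99 in control leaves at day 9, and 5.33 and 5.27 at day 10. The day-9 comparison, the interaction and the comparison of control and time course changes all use the same day-9 control arrays. They are therefore not independent results. Each of the 10 genes had its lowest mean of the 4 groups in norflurazon leaves at day 9.

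Of the 25 other aquaporins, 2 fell at day 9, against 7.43% of probe sets called and 3.83% called as lower. They were SIP2;1, which fell by 0.37 ± 0.08 (limma adjusted p = 0.0180) and PIP1C (PIP1;3), by 0.35 ± 0.09 (adjusted p = 0.0462). At day 10, 0 were called. SIP2;1 was also the only one called in the interaction (0.65 ± 0.12, adjusted p = 0.0147). PIP1;5, which had risen with age, averaged 5.69 ± 0.13 in norflurazon leaves and 6.04 ± 0.07 in control leaves at day 9 (-0.35 ± 0.14, adjusted p = 0.183). RD28, beside PIP2B, differed by -0.28 ± 0.26 (adjusted p = 0.643), and TIP2;3, the copy of TIP2;2, by 0.29 ± 0.12 (adjusted p = 0.183).

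Of 20 pump genes, 4 fell at day 9 and 0 rose, against 7.43% of probe sets called and 3.83% called as lower, with a median change of -0.08. AHA2 averaged 5.49 ± 0.04 in norflurazon leaves and 6.15 ± 0.17 in control leaves (-0.67 ± 0.10, limma adjusted p = 0.00241), and AHA1 averaged 7.20 ± 0.05 in norflurazon leaves and 7.71 ± 0.13 in control leaves (-0.51 ± 0.08, adjusted p = 0.00376). VHA-c1 of the vacuolar ATPase fell by 0.38 ± 0.09 (adjusted p = 0.0211). At day 10, 0 of the 20 were called, with AHA2 at -0.36 ± 0.10 (adjusted p = 0.125).

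Of the 11 trafficking genes, 1 rose and 1 fell at day 9, against 7.43% of probe sets called. SYP121, a syntaxin known to act in delivering PIPs to the plasma membrane, rose by 0.42 ± 0.11 (limma adjusted p = 0.0399). RMA1 averaged 6.22 ± 0.07 in norflurazon leaves and 6.96 ± 0.36 in control leaves at day 9 (-0.73 ± 0.15, adjusted p = 0.0122), and 6.22 ± 0.05 in norflurazon leaves against 5.47 ± 0.19 in control leaves at day 10 (0.75 ± 0.15, adjusted p = 0.0474). The direction turned between the days, with an interaction of 1.49 ± 0.21 (adjusted p = 0.00613). The mean of RMA1 in norflurazon leaves was the same on both days to 2 decimals.

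Vascular markers moved a little with norflurazon at day 9. The log2 of the summed level of the 6 markers was 5.88 to 5.98 in norflurazon leaves and 6.02 to 6.12 in control leaves, and 2 of the 6 were called as lower, SUC2 (-0.30 ± 0.07, limma adjusted p = 0.0236) and APL (-0.48 ± 0.10, adjusted p = 0.0112, dim). At day 10 the sums were 5.96 to 5.98 in norflurazon leaves and 6.003 to 6.11 in control leaves. The guard cell sums were 6.06 to 6.71 in norflurazon leaves and 6.27 to 6.66 in control leaves at day 9, and 5.82 to 6.80 in norflurazon leaves and 7.02 to 7.21 in control leaves at day 10. Guard cell and epidermal markers had 0 of 4 and 0 of 2 genes called at either day, and 1 of 5 mesophyll probe sets was higher at day 9. The part of these markers in the fall of the aquaporins was not tested.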

How the data were processed

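RNA of leaf 3 was measured on 30 AGRONOMICS1 tiling arrays, 1 per sample. The authors deposited log2 values made with RMA, using TAIR9 as the build, as the submitters' processing notes give it. The version of RMA is not given in the sources used here. RMA quantile-normalizes arrays, and low levels are compressed. All 30 columns were matched to samples by their labels, with 0 columns of other samples. Arrays give no counts, and their number limits the precision.

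Genes were matched by locus, whatever the suffix of the probe set (7 with a number and 3, PIP1A, PIP1B and PIP2A, with X, whose meaning is not given). Names came from a reference gene table, whose gene positions were used only to see whether the 2 pairs of copies are neighbours. Groups followed the labels. All comparisons but 1 came from separate fits of the 18 time course and 12 norflurazon arrays with limma 3.58.1 in R 4.3.3 (1 coefficient per group, eBayes). These fits had 12 and 8 residual degrees of freedom. Benjamini-Hochberg adjustment was over 30237 probe sets within each comparison. The fit was tested on simulated data. Nothing was filtered and no pseudocount was added. Alternatives were quantile normalization again, fewer arrays in the fit, a filter on dim probe sets, an intensity trend with a robust prior, a replicate block and leaving out each array. The comparison of control and time course changes was added after the data were seen.

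The 10 genes and the lists were chosen with earlier results of these data known. All 10 are described. Among other aquaporins up to 6 called genes, and among pumps and trafficking genes up to 3 called per direction, with the largest changes, were named. Likeness took the 3 genes with a symbol and the highest Pearson r, leaving out those below the median of all probe sets. RD28 and TIP2;3, as copies, the day-9 values of PIP1;5, the day-10 values of AHA2 and the vascular markers were named outside that rule. The labels do not say whether replicate numbers pair samples, and no pairing was used in the main fits. Same-numbered deviations correlated at -0.25 to 0.17 over 45 pairs (2 over 0.1) in the time course. In the norflurazon experiment they correlated at -0.06 to 0.09 over 18 pairs (0 over 0.1). These values do not settle whether same-numbered samples were handled together.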

Additional observations from a re-analysis of the deposited data

Results flagged for a closer look

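The effect of norflurazon on PIP2A and PIP2B differed between 24 h and 48 h by the test of the difference itself. The day-10 effect minus the day-9 effect was 0.90 ± 0.15 on the log2 scale for PIP2A (limma adjusted p = 0.0129) and 0.85 ± 0.18 for PIP2B (adjusted p = 0.0381). The call of PIP2A held in all 16 alternatives and that of PIP2B in 5 of 16, with adjusted p up to 0.0946.

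The change of PIP2A between days 9 and 10 was called as different between the experiments in the main fit only narrowly. The change in control leaves minus that in the time course was -0.70 ± 0.21 (limma adjusted p = 0.0479). This comparison was added after the values had been seen, and it shares the day-9 control arrays with the interaction. The call was lost without replicate 2 or 3 of any group involved (adjusted p = 0.0545 to 0.159) and with a replicate block (0.0579). For TIP2;2 the change in control leaves minus that in the time course was -1.46 ± 0.49 (adjusted p = 0.0734). TIP2;2 is listed because every day-10 array lay below the day-9 arrays in control leaves and above them in the time course. The test of its difference did not pass the threshold.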

How the results depend on the processing

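No change in direction of a called aquaporin was seen in the alternatives run, and the 9 rises from day 8 to day 13 were called in each. Among uncalled values, several changed sign, and that of PIP3 for day 13 against day 8 was 0.07 with quantile normalization again (adjusted p = 0.659), against -0.27 as reported (0.0662). With the fit limited to the compared arrays, the number of called aquaporins was 3 instead of 6 for day 10 against day 9, 0 instead of 2 for day 13 against day 12 and 2 instead of 5 for the control leaves. The 3 included PIP2B, which was not among the 6. Quantile normalization again gave 1 instead of 0 for day 12 against day 11 and 3 instead of 5 for the control leaves, and a filter on dim probe sets gave 1 for day 12 against day 11. The replicate block gave 1 instead of 2 for day 13 against day 12, 3 instead of 5 for the control leaves, 1 instead of 2 for the interaction and 0 instead of 1 for control minus time course (PIP2A, adjusted p = 0.0579), and the call lost in the interaction was PIP2B (0.0604). The labels do not say whether the numbers pair samples, so these are given as values of another fit.

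Leaving out 1 array gave 9 to 9 called aquaporins for all ages and for day 13 against day 8, 0 to 0 for days 9 against 8 and 11 against 10, 1 to 7 for day 10 against 9, 0 to 1 for day 12 against 11 and 0 to 2 for day 13 against 12. It gave 2 to 5 for the control leaves, 3 to 5 for norflurazon at day 9, 0 to 0 at day 10, 1 to 2 for the interaction and 0 to 1 for control minus time course.

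Counts over all probe sets moved too. With only the compared arrays they were 16 for day 9 against 8 (386 in all arrays), 704 for day 10 against 9 (2232), 3 for day 12 against 11 (210), 2 for day 13 against 12 (465) and 1202 for norflurazon at day 9 (2248). With the dim filter they were 613 for day 9 against 8, 3 for day 11 against 10 (0), 347 for day 12 against 11, 751 for day 13 against 12, 431 for norflurazon at day 10 (233) and 890 for the interaction (589), and quantile normalization again gave 336 for day 12 against 11. Leaving out 1 array gave 115 to 805, 749 to 2266, 0 to 6, 10 to 242 and 122 to 770 for the intervals in order of age, 1416 to 2179 and 16 to 114 for norflurazon at days 9 and 10, 359 to 649 for the interaction, and 1227 to 2172 for control minus time course (2058).

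Quantile normalization again also moved the split of higher and lower calls, to 299 and 261 for day 9 against 8 (139 and 247), 1106 and 952 for day 10 against 9 (718 and 1514), 113 and 210 for norflurazon at day 10 (120 and 113), 358 and 335 for the interaction (381 and 208) and 1080 and 983 for control minus time course (1333 and 725). The causes of these shifts were not tested. Signals near the array median, such as TIP2;2 at day 8, give compressed changes.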
